A study of Mus musculus with 12 samples.

Results

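The acute phase response is the change in liver output that follows infection or injury, when interleukin-6, interleukin-1 and related cytokines reach hepatocytes and, through the transcription factors STAT3, NF-kB and C/EBP, switch on the genes of secreted plasma proteins. Between such events most of these proteins are made at a low or moderate rate, and the same genes serve as a readout of the inflammatory tone of the liver. Glucocorticoids act together with the cytokines on several of these genes.

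The 10 acute-phase protein genes Saa1, Saa2, Saa3, Saa4, Orm1, Orm2, Hp, Lcn2, Crp and Apcs were chosen by name, by the symbol that opens a gene's annotation in the deposited table, and all 10 were found among its 24537 genes. Liver RNA was sequenced from 12 male C57Bl/6J mice, 6 weeks old at the start and housed singly, with 3 mice fed ad libitum (Con) and 3 mice on calorie restriction (CR) at each of day 25 and day 30. CR mice received 30% less than Con mice ate, as 1 daily meal at midday of a fortified version of the control chow, so restriction, meal timing and chow formulation cannot be told apart. All mice had been labelled with heavy water before sacrifice, and the hour of sacrifice is not given in the sources used here. The question was what CR does to the liver transcriptome at 2 time points around which hepatic protein synthesis was followed.

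The values are FPKM, the fragments on a gene's exons scaled by the length of those exons and by the reads of the library, so that levels can be set side by side between genes. Genes with few reads have FPKM values on a grid of whole reads, which gave the depth of each library as 15749284 to 23346963 reads, and 78.1% to 84.3% of the reads lay on exons. All 12 hepatocyte markers were detected in every group, led by Alb (serum albumin) at a mean of 36892 FPKM. Comparisons used limma on log2(FPKM + 1) over the 10593 genes with at least 1 FPKM in at least 3 libraries. A gene is said to have risen or fallen where its Benjamini-Hochberg adjusted p was under 0.1 and its change at least 2-fold. All 10 genes passed the filter on low values, and each was at or above 1 FPKM in every library. In whole liver, fewer cells of a type and less RNA per cell cannot be told apart.

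The 4 Saa genes lie within 42.3 kb of chromosome 7 (mm10), in the order Saa3 (46711998 to 46715676), Saa4 (46727992 to 46732603), Saa1 (46740499 to 46742980) and Saa2 (46751833 to 46754314), with Saa1 and Saa2 transcribed away from each other across a gap of 8.85 kb. Orm1 (63344556 to 63348163) and Orm2 (63362449 to 63365877) lie in the same orientation within 21.3 kb of chromosome 4. Crp (172698056 to 172699966) and Apcs (172893961 to 172895054) lie 194 kb apart on chromosome 1, Lcn2 (32384637 to 32387739) lies on chromosome 2 and Hp (109575128 to 109579172) on chromosome 8. In the GENCODE transcripts, the Saa genes have 4 exons each, the Orm genes and Lcn2 have 6, Hp has 5, and Crp and Apcs have 2.

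The first 120 coding bases of the 2 pairs of near copies are shown because the results turn on telling the copies apart. They were read from the GENCODE vM21 transcripts, and capitals mark the bases of the second copy that differ from the first.
Saa1: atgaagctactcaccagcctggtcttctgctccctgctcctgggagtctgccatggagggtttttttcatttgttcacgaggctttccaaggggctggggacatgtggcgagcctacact
Saa2: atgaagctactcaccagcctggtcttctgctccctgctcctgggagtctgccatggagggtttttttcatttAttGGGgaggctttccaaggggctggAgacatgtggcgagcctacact
Orm1: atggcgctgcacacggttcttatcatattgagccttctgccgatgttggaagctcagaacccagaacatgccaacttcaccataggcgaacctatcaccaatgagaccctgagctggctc
Orm2: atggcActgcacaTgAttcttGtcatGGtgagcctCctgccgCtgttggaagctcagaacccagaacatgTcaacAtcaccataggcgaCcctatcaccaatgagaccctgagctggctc
Over the whole coding sequence, Saa2 differed from Saa1 at 18 of 369 bases (95.1% identity) and Orm2 from Orm1 at 63 of 624 bases (89.9% identity), while Saa3 was 73.2% identical to Saa1. The longest run of identical bases was 99 between the transcripts of Saa1 and Saa2 and 141 between those of Orm1 and Orm2. Of the 676 windows of 100 bases, the length of a read, in the Orm1 transcript, 47 (6.95%) were also found in Orm2, and none of the windows of Saa1 were found in another Saa transcript. How reads that fit both copies were placed is not given in the sources used here, so values of Saa1, Saa2, Orm1 and Orm2 carry that uncertainty, and sums over the copies are given beside them.

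The promoters of Saa1, Saa2 and Orm2, the genes that changed most, were read from RefSeq for build GRCm38.p6, from 250 bases before to 50 bases after the start site. Capitals mark a match to TTGCNNAA, the core to which factors of the C/EBP family can bind, searched on both strands.
Saa1, chr7:46742931-46743230, minus strand: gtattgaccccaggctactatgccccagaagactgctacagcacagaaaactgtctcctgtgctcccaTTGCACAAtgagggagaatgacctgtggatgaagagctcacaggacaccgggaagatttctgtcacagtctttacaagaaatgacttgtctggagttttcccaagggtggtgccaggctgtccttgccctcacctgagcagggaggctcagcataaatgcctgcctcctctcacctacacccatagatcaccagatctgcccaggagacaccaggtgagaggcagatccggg
Saa2, chr7:46751583-46751882, plus strand: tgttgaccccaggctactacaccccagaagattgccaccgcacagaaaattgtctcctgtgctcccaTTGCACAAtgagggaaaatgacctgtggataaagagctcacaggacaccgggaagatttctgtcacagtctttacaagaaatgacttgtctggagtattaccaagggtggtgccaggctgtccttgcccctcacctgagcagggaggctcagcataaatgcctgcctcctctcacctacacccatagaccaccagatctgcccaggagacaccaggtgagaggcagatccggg
Orm2, chr4:63362199-63362498, plus strand: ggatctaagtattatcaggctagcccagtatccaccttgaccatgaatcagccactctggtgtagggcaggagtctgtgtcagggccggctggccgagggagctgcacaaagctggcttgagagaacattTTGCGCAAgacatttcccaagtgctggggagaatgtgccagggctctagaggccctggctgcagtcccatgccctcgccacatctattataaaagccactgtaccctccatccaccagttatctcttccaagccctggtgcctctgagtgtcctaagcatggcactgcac
The promoters of Saa1 and Saa2 were identical at 287 of 301 aligned positions (95.3%), with the match 182 bases before the start site of Saa1 and 183 bases before that of Saa2. In Orm2 the match began 120 bases before the start site. A promoter was found for 8 of the 10 genes, not for Orm1 and Hp. TTGCNNAA was found in 6 of these 8 (Saa1, Saa2, Saa3, Saa4, Orm2 and Lcn2) and in 10.8% of the 32851 promoters of the table, TTCNNNGAA, a STAT core, in 1 of 8 (Apcs) and 8.30%, and the NF-kB consensus in 0 of 8 and 8.46%. The motif was thus found in genes that fell (Saa1), that rose (Orm2) and that were past both thresholds at neither day with all mice (Lcn2).

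Hp, which encodes the hemoglobin-binding protein haptoglobin, was the most abundant of the 10 mRNAs and ranked 25th among all genes by mean FPKM. In Con mice the order of mean FPKM was Hp (1914 ± 579, SD, n = 6), Orm1 (341 ± 65.6), Crp (147 ± 15.5), Saa4 (105 ± 15.4), Saa1 (47.5 ± 23.6), Apcs (42.8 ± 11.6), Saa2 (15.3 ± 6.63), Saa3 (7.31 ± 0.934), Lcn2 (6.85 ± 6.20) and Orm2 (5.96 ± 1.95). Neighbours in this order whose ranges did not overlap were Hp and Orm1, Orm1 and Crp, and Apcs and Saa2. In CR mice Orm2 stood at rank 6 of 10 (25.4 ± 9.12) and Saa1 at rank 7 (10.8 ± 2.64), with Saa2 (5.66 ± 2.62) and Saa3 (4.09 ± 1.39) last. The 4 genes at the top of the order were the same in both diets.

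**Figure D1:**
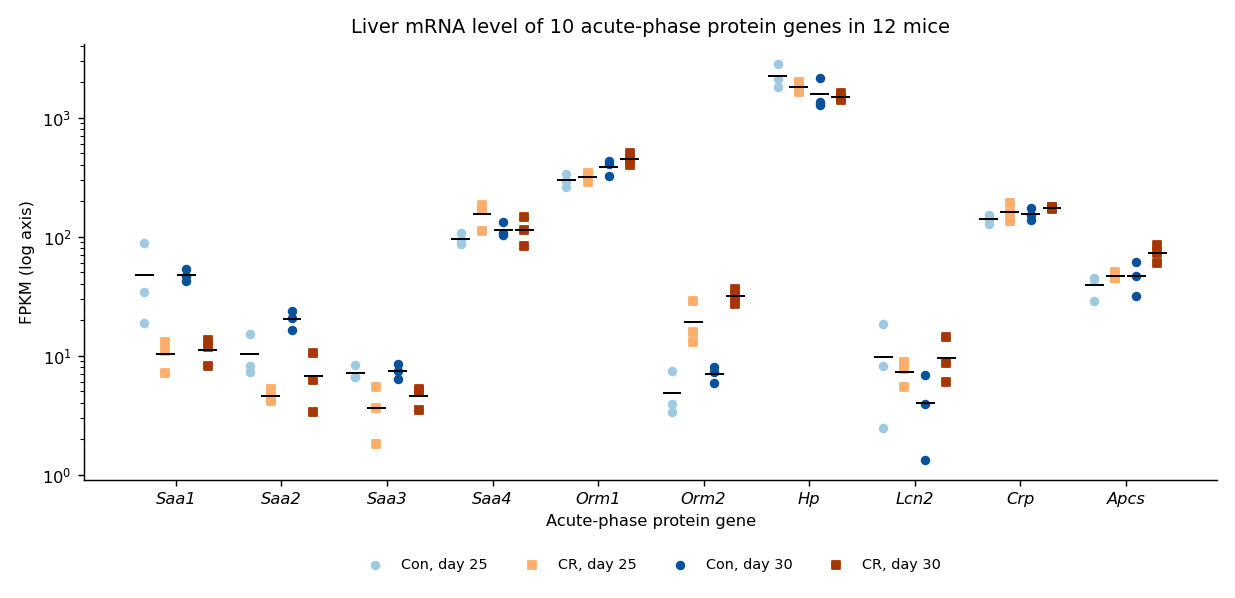
FPKM (log axis) of the 10 genes in each of 12 mice, with Con mice as circles and CR mice as squares, day 25 in light and day 30 in dark colors, and a black line at the mean of the 3 mice of a group. Squares lie below circles for Saa1 and above circles for Orm2 at both days, and the 2 diets overlap for Orm1, Hp, Crp and Lcn2.

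Under CR the family did not move as one. By mean FPKM Saa1 fell more than 4-fold over both days and Orm2 rose more than 4-fold. Saa3, Saa4, Orm1, Hp, Lcn2, Crp and Apcs were past both thresholds at neither day. At day 25, 2 of the 10 genes were past both thresholds (Saa1 lower, Orm2 higher), against 1.48% of all genes tested. At day 30, 3 were (Saa1 and Saa2 lower, Orm2 higher), against 2.21%, and over both days the same 3, against 1.66%. At an adjusted p under 0.1 with no limit on size, the counts were 5 of 10 at day 25 (Saa1, Saa2, Saa3, Saa4 and Orm2) against 14.9% of all genes, 4 at day 30 (Saa1, Saa2, Orm2 and Apcs) against 24.7%, and 5 over both days (Saa1, Saa2, Saa3, Orm2 and Apcs) against 40.6%. At this looser cut Saa2, Saa3 and Saa4 at day 25 and Apcs at day 30 each lost the call with some mouse left out (highest adjusted p 0.251, 0.103, 0.209 and 0.209, limma). The values of CR and Con mice did not overlap in 5 genes at day 25 against 28.2% of all genes, in 4 at day 30 against 36.4%, and over both days in 3 (Saa1, Saa3 and Orm2) against 12.5%. The median log2 fold change of the 10 genes was 0.030 at day 25 and 0.078 at day 30, beside -0.039 and -0.068 over all genes tested.

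**Figure D2:**
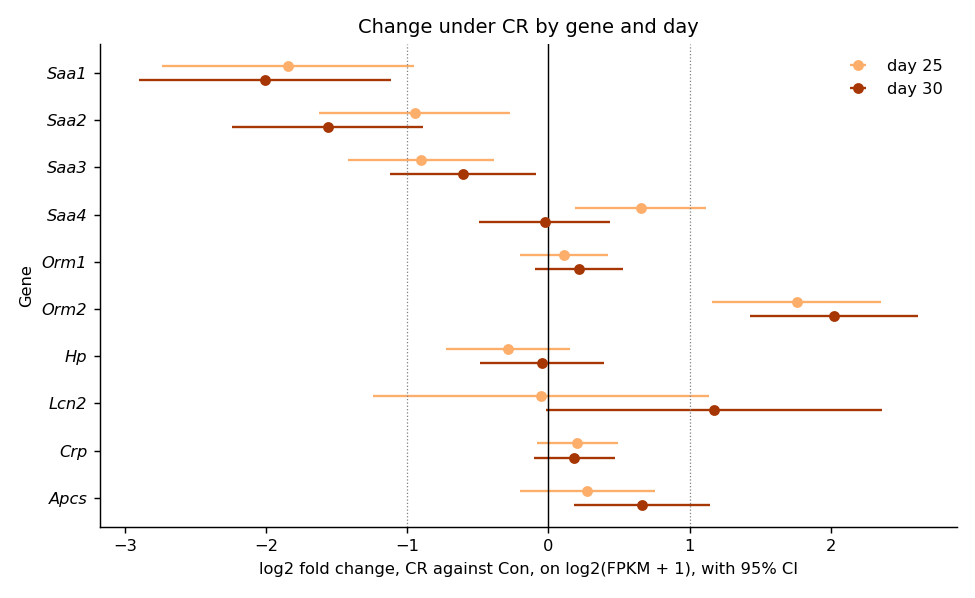
Log2 fold change of CR against Con on log2(FPKM + 1) for each gene, with 95% confidence intervals from limma, at day 25 (light) and day 30 (dark), 3 mice per group. Dotted lines mark 2-fold changes, beyond which the point lies on the left for Saa1 at both days and Saa2 at day 30 and on the right for Orm2 at both days and Lcn2 at day 30, whose interval includes 0.

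Saa1 and Saa2 encode the serum amyloid A proteins that hepatocytes secrete into plasma and that travel on high-density lipoprotein. Saa1 was at 18.9, 34.4 and 89.1 FPKM in Con mice and at 10.9, 13.1 and 7.12 FPKM in CR mice at day 25. Its values at day 30 were 46.5, 53.7 and 42.6 FPKM in Con mice and 11.9, 13.6 and 8.20 FPKM in CR mice. The lowest of the 6 Con mice thus lay above the highest of the 6 CR mice, and the Con mice at day 25 spread far more than those at day 30. The mean of Con mice was 4.58 times that of CR mice at day 25 and 4.24 times at day 30. On log2(FPKM + 1), Saa1 fell by 1.85 at day 25 (SE 0.41, limma adjusted p = 0.0160) and by 2.01 at day 30 (SE 0.41, adjusted p = 0.00668). Without Con replicate 3 at day 25, the highest mouse, the log2 fold change at day 25 was -1.26, still past both thresholds.

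Saa2 was at 7.29, 8.20 and 15.2 FPKM in Con mice and at 4.37, 5.26 and 4.12 FPKM in CR mice at day 25. Con mice at day 30 had 16.6, 20.6 and 23.9 FPKM, and CR mice had 10.6, 6.30 and 3.33 FPKM. The diets did not overlap at either day, but the highest CR mouse at day 30 lay above 2 of the Con mice at day 25. Saa2 fell by 1.57 on the log2 scale at day 30 (SE 0.31, limma adjusted p = 0.00592), while at day 25 its log2 fold change was -0.95 (SE 0.31, adjusted p = 0.0784), short of the 2-fold limit. With each mouse left out, the value at day 25 ran from -0.65 (without Con replicate 3, adjusted p = 0.251) to -1.14 (without Con replicate 1, past both thresholds). Summed as 1 gene, Saa1 and Saa2 changed by -1.67 at day 25 (adjusted p = 0.0194) and -1.91 at day 30 (adjusted p = 0.00643).

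Saa3, whose product is made by macrophages and adipocytes as well as by liver cells, was the least abundant Saa gene, with 20.0 to 92.0 reads behind each value. It was at 6.62, 8.29 and 6.67 FPKM in Con mice and at 1.797, 3.63 and 5.40 FPKM in CR mice at day 25. At day 30 it was at 8.56, 7.41 and 6.34 FPKM in Con mice and at 4.90, 5.29 and 3.51 FPKM in CR mice. All 6 CR mice lay below all 6 Con mice, yet the change stayed under 2-fold on the log2(FPKM + 1) scale. The log2 fold change was -0.90 at day 25 (SE 0.24, limma adjusted p = 0.0356), -0.61 at day 30 (adjusted p = 0.102) and -0.76 over both days (adjusted p = 0.00493). With each mouse left out, the value at day 25 ran from -0.58 (without CR replicate 1) to -1.18 (without CR replicate 3, the only one of the 12 fits past both thresholds), and without Con replicate 2 the adjusted p was 0.103.

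Macrophage markers were measured beside Saa3, and at day 25 most of them were lower in CR mice too. The summed FPKM of 12 macrophage markers, led by Cd5l (mean 12.8 FPKM), was 86.4 to 143 in Con and 53.3 to 68.5 in CR mice at day 25, with no overlap. At day 30 it was 76.2 to 110 in Con and 69.7 to 101 in CR mice, with overlap. At day 25, 8 of the 12 markers were lower at an adjusted p under 0.1, against 14.9% of all genes tested in either direction. At day 30 none were lower and 1 was higher, against 24.7% of all genes. The higher one was Marco (log2 fold change 0.79, limma adjusted p = 0.0349), which was also higher over both days (0.58, adjusted p = 0.0182). None of the 12 was past both thresholds at either day, and none were at 0 in every library. Across the 12 libraries the log2 levels of Saa3 and of the marker sum had r = 0.81, and r = 0.57 after the mean of each group was taken out, whereas for Saa1 these were 0.60 and 0.075. These correlations rest on 12 mice that share the 4 groups. The part of macrophages in the level of Saa3 was not tested.

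**Figure D3:**
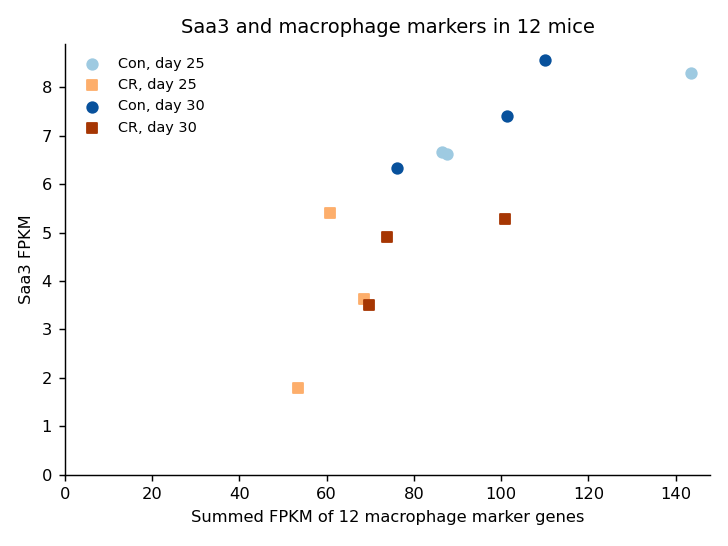
Saa3 FPKM against the summed FPKM of 12 macrophage marker genes, 1 point per mouse, Con as circles and CR as squares, day 25 in light and day 30 in dark colors. Mice with a lower marker sum had lower Saa3 (r = 0.81 on the log2 scale), and all CR mice lie below all Con mice on the Saa3 axis while their marker sums overlap at day 30.

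Saa4 encodes the constitutive serum amyloid A of high-density lipoprotein, which responds little to inflammation. At day 25 it was at 93.0, 87.1 and 108 FPKM in Con mice and at 166, 184 and 112 FPKM in CR mice. Con mice at day 30 had 107, 132 and 103 FPKM, and CR mice had 82.9, 147 and 113 FPKM. All CR mice were above all Con mice at day 25, and the diets overlapped at day 30. The log2 fold change was 0.65 at day 25 (SE 0.21, limma adjusted p = 0.0773) and -0.027 at day 30 (adjusted p = 0.943), a sign that turned to 0.055 under median-ratio scaling.

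Within the same library the ratio of the 2 kinds of serum amyloid A mRNA differed between the diets. At day 30 this went with the fall of Saa1, as Saa4 had a log2 fold change of -0.027. Saa4 stood at 1.21 to 4.92 times the FPKM of Saa1 in Con mice (median 2.44) and at 6.96 to 15.8 times in CR mice (median 13.9). The ratio was higher in CR by 2.34 on the log2 scale. Its exact 2-sided permutation p within days was 0.005, the smallest that 400 arrangements allow, and 0.00667 adjusted over the 4 ratios tested. These ratios were chosen after the values were seen, when Saa1 alone already separated the diets. The p thus adds no support beyond the fall of Saa1. Saa1 over Saa2 was 1.78 to 5.85 in Con and 1.13 to 2.49 in CR mice, and its difference of -0.61 on the log2 scale did not pass 0.05 (exact permutation p = 0.065, also after adjustment). Saa1 and Saa2 were the most alike pair of the 10 genes across the 12 libraries (r = 0.86, and 0.68 within groups).

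Orm1 and Orm2 encode orosomucoid, or alpha-1-acid glycoprotein, a plasma carrier of drugs and lipids. Orm1, the major copy, was at 262, 293 and 334 FPKM in Con mice and at 289, 324 and 346 FPKM in CR mice at day 25. Its level at day 30 was 320, 408 and 431 FPKM in Con mice and 505, 397 and 441 FPKM in CR mice. The diets overlapped at both days, with a log2 fold change of 0.11 at day 25 (95% CI -0.20 to 0.42, limma adjusted p = 0.683) and 0.22 at day 30 (95% CI -0.10 to 0.53, adjusted p = 0.324). At day 25 its sign turned under quantile normalization (-0.019).

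Orm2 had the lowest mean FPKM of the 10 genes over the 6 Con mice, with a range that overlapped those of Lcn2 and Saa3, and was the only one of them past both thresholds in the upward direction. It was at 3.33, 3.91 and 7.44 FPKM in Con mice and at 15.7, 13.0 and 28.7 FPKM in CR mice at day 25. At day 30 it was at 5.86, 7.96 and 7.24 FPKM in Con mice and at 32.0, 36.0 and 26.95 FPKM in CR mice. The lowest CR mouse lay above the highest Con mouse at each day, and the mean of CR mice was 3.91 times that of Con mice at day 25 and 4.51 times at day 30. The log2 fold change was 1.76 at day 25 (SE 0.28, limma adjusted p = 0.00310), 2.02 at day 30 (SE 0.28, adjusted p = 7.6e-04) and 1.89 over both days (SE 0.19, adjusted p = 2.6e-05).

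Orm1 stood at 44.9 to 78.6 times the FPKM of Orm2 in Con mice (median 57.1) and at 11.0 to 24.9 times in CR mice (median 16.1). The difference was -1.91 on the log2 scale, with an exact permutation p = 0.005, the smallest the design allows (0.00667 after adjustment over the 4 ratios). This ratio was chosen after the values were seen, when Orm2 alone already separated the diets. The p thus restates the rise of Orm2 and adds no support to it. The part of Orm1 reads placed on Orm2 in these values was not tested. Orm3, a further copy that is not among the 10 genes and was looked at after the values were seen, was at 1.99 to 4.58 FPKM in Con and 4.40 to 14.8 FPKM in CR mice at day 25, and at 0.858 to 4.58 FPKM in Con and 11.0 to 25.9 FPKM in CR mice at day 30. Orm3, no 100-base window of which was found in Orm1 or Orm2, had a log2 fold change of 1.00 at day 25 (limma adjusted p = 0.190) and 2.53 at day 30 (adjusted p = 0.00328). Summed, the 3 copies, of which Orm1 was by far the most abundant, had a log2 fold change of 0.19 at day 25 and 0.33 at day 30 (limma adjusted p = 0.468 and 0.144). Over both days it was 0.26 (adjusted p = 0.0677). Orm2 and Orm3 summed without Orm1 had 1.59 at day 25 and 2.29 at day 30 (adjusted p = 0.00823 and 6.4e-04).

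**Figure D4:**
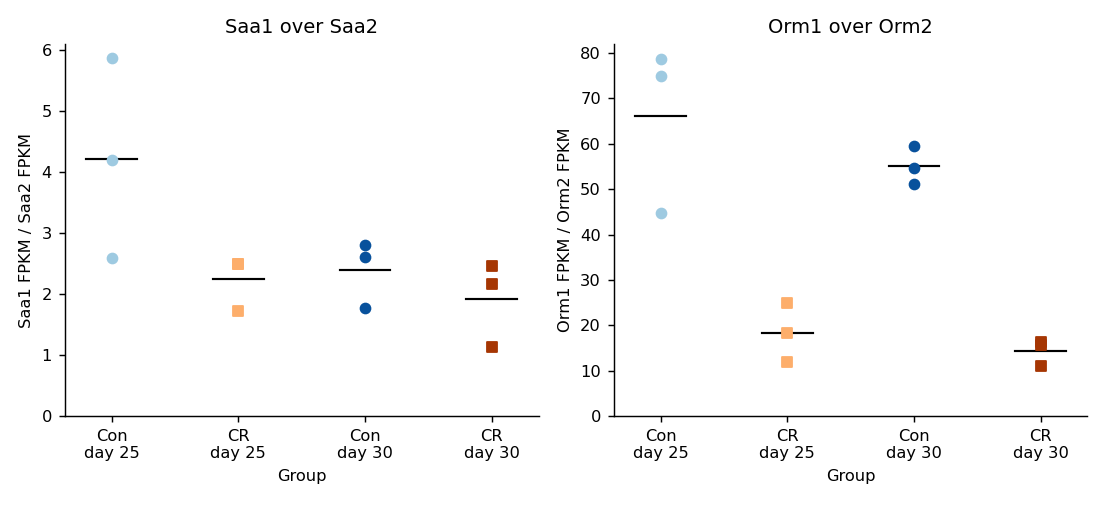
Ratio of FPKM within each library, Saa1 over Saa2 (left) and Orm1 over Orm2 (right), by group, 1 point per mouse and a line at the mean. Orm1 over Orm2 was at least 44.9 in Con mice and at most 24.9 in CR mice, while Saa1 over Saa2 overlapped between the diets.

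Hp was at 1269 to 2833 FPKM (median 1943) in the 6 Con mice and at 1398 to 1981 FPKM (median 1626) in the 6 CR mice. The ranges overlapped at both days, and the log2 fold change was -0.29 at day 25 (limma adjusted p = 0.412) and -0.045 at day 30 (adjusted p = 0.899), the latter turning to 0.037 under median-ratio scaling. With 33880 to 59786 reads behind each Hp value, the spread between mice, not counting error, sets its precision.

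Lcn2 encodes lipocalin-2, which binds bacterial siderophores and is made by hepatocytes and stored in neutrophil granules. It was at 8.23, 2.45 and 18.3 FPKM in Con mice and at 7.71, 5.49 and 8.77 FPKM in CR mice at day 25. Its values at day 30 were 6.88, 1.33 and 3.88 FPKM in Con mice and 14.2, 5.96 and 8.72 FPKM in CR mice. Lcn2 varied most between mice of a group among the 10 genes, with a within-group SD of 0.83 on the log2 scale, which only 0.425% of all genes tested exceeded. Its log2 fold change was -0.052 at day 25 (95% CI -1.24 to 1.14, limma adjusted p = 0.969) and 1.17 at day 30 (95% CI -0.017 to 2.36, adjusted p = 0.164), so changes of over 2-fold in either direction at day 25 lay inside the interval. With each mouse left out, the value at day 30 ran from 0.70 to 1.58 and the adjusted p from 0.0823 (without Con replicate 2 at day 25) to 0.447 (without the lowest Con mouse at day 30), and 1 of the 12 fits was past both thresholds. Neutrophil markers were near 0: none of 13 reached the filter, Camp and Ly6g were at 0 in every library, the highest, S100a8, had a mean of 0.234 FPKM, and their sum was 0.712 to 1.961 FPKM in Con and 0.155 to 1.15 FPKM in CR mice.

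Crp and Apcs encode the pentraxins C-reactive protein and serum amyloid P, of which serum amyloid P is the major acute-phase form in mice. Crp was at 128 to 173 FPKM (median 146) in Con and at 136 to 193 FPKM (median 174) in CR mice, with overlap at both days and a log2 fold change of 0.21 at day 25 (limma adjusted p = 0.372) and 0.18 at day 30 (adjusted p = 0.367). Its spread between mice of a group was the smallest of the 10 genes, at 0.16 on the log2 scale, close to the median of all genes tested (0.15).

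Apcs was at 44.9, 29.0 and 43.2 FPKM in Con mice and at 44.5, 45.0 and 50.6 FPKM in CR mice at day 25. At day 30 it was at 61.2, 31.6 and 46.9 FPKM in Con mice and at 72.5, 84.4 and 60.3 FPKM in CR mice. The diets overlapped at both days, each time through a single pair of mice. The log2 fold change was 0.28 at day 25 (limma adjusted p = 0.480), 0.66 at day 30 (SE 0.22, adjusted p = 0.0606) and 0.47 over both days (adjusted p = 0.0399), below the 2-fold limit.

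The effect of CR did not differ between the days at the thresholds used for any of the 10 genes. The interaction contrast of limma called 0 of 10 (against 0.00944% of all genes tested), with 1 gene, Saa4, at an unadjusted p under 0.05 (difference -0.68, 95% CI -1.34 to -0.022), and voom on recovered reads also called 0. For Lcn2 the interval of the difference ran from -0.46 to 2.91, and for Saa2 from -1.58 to 0.34, so a difference of 2-fold between days lies inside both intervals. Between day 30 and day 25, 0 of 10 passed in Con mice (0% of all genes) and 0 of 10 in CR mice (0.142% of all genes), by limma and by voom alike. At an unadjusted p under 0.05 (limma) were Hp, Orm1 and Saa2 in Con mice and Orm1, Orm2 and Apcs in CR mice. The share of all genes at this unadjusted cut, here and for Saa4 above, was not computed. These genes are therefore named as description only. Saa2 was higher in Con mice at day 30 than at day 25 by 0.98 on the log2 scale (limma adjusted p = 0.551) and Orm2 higher in CR mice by 0.76 (adjusted p = 0.410).

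The cytokines that induce these genes were close to absent from the liver mRNA. Of 10 listed, 1 (Il1a) passed the filter, at a mean of 1.00 FPKM in Con and 0.871 FPKM in CR mice (log2 fold change over both days -0.094, limma adjusted p = 0.431), and Il6 and Il22 were at 0 in every library. Of 8 cytokine receptor genes tested, Il6ra, the ligand-binding chain of the interleukin-6 receptor, rose at day 30 by 1.03 on the log2 scale (limma adjusted p = 0.00131), from a mean of 14.3 FPKM in Con to 30.4 FPKM in CR mice. At day 25 its log2 fold change was 0.90 (adjusted p = 0.00481), with means of 21.6 and 40.7 FPKM. The signal-transducing chain Il6st had a log2 fold change of 0.12 over both days (limma adjusted p = 0.270).

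None of the 16 signalling and feedback genes tested was past both thresholds. Over both days, 9 of them were lower and 1 higher at an adjusted p under 0.1, a cut that 40.6% of all genes tested pass, with a median log2 fold change of -0.18 beside -0.054 over all genes. Socs3, a feedback inhibitor that STAT3 induces, had the largest change of this list, at a mean of 2.90 FPKM in Con and 1.52 FPKM in CR mice (log2 fold change -0.58, limma adjusted p = 0.0693). Stat3 itself had a log2 fold change of -0.17 (adjusted p = 0.0855). Of 14 transcription factors tested none passed both thresholds, and the largest change was that of Cebpb, a member of the C/EBP family, with means of 38.2 FPKM in Con and 64.1 FPKM in CR mice (log2 fold change 0.74, adjusted p = 2.9e-04). Cebpa, of the same family and more abundant, went the other way, with means of 142 FPKM in Con and 102 FPKM in CR mice (log2 fold change -0.47 over both days, limma adjusted p = 0.0135, and -0.75 at day 30, adjusted p = 0.00559).

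Among the other proteins of the response, 21 positive acute-phase genes were tested. The metallothioneins Mt1 and Mt2, which bind zinc and are also induced by glucocorticoids, rose over both days by 1.08 and 1.24 on the log2 scale (limma adjusted p = 0.0094 and 0.0164), and no other gene of the list passed both thresholds. At an adjusted p under 0.1, 6 of the 21 were higher and 7 lower, against 40.6% of all genes tested in either direction, with a median log2 fold change of -0.11. Of 11 negative acute-phase genes, whose output goes down in inflammation, Serpina6 rose by 1.28 (adjusted p = 8.6e-05), from a mean of 95.3 FPKM in Con to 238 FPKM in CR mice. Serpina6 encodes the corticosteroid-binding globulin of plasma. The median of this list was 0.27, with 5 genes higher and 1 lower at an adjusted p under 0.1, against 40.6% of all genes tested at that cut. Of 9 binding partners and clearance receptors none passed both thresholds, and the largest change was that of Cd36 (0.54, adjusted p = 0.0491).

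Genes that glucocorticoids induce in liver were higher in CR mice. Of 9 tested, 3 rose over both days, Fkbp5, a chaperone of the glucocorticoid receptor (1.91, limma adjusted p = 7.1e-05), Zbtb16, a transcription factor (1.72, adjusted p = 2.0e-04), and Tat, tyrosine aminotransferase (1.52, adjusted p = 1.8e-04), and none fell past both thresholds. Dusp1, a phosphatase, rose at day 25 by 1.36 (adjusted p = 0.0180), and Pck1, of gluconeogenesis, at day 30 by 1.02 (adjusted p = 0.00344). At an adjusted p under 0.1, 8 of the 9 were higher and 1 lower over both days, against 40.6% of all genes tested in either direction, with a median log2 fold change of 0.75. The part of these genes' inducers in the levels of the 10 acute-phase genes was not tested.

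**Figure D5:**
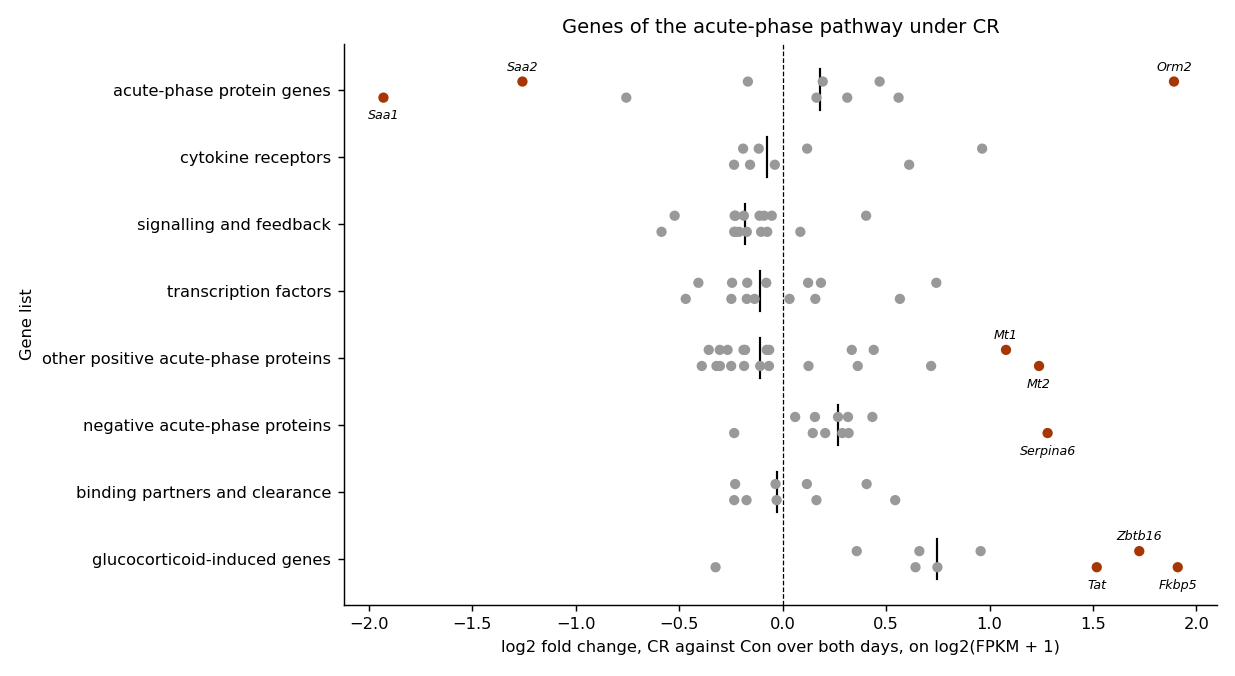
Log2 fold change of CR against Con over both days for the tested genes of 8 lists of the acute-phase pathway, 1 point per gene, with the list's median as a black line. Red points are past both thresholds and are named, and within the top list these are Saa1 (-1.93), Saa2 (-1.26) and Orm2 (1.89). Saa3 (-0.76, grey) lies next to Saa2.

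By Pearson's r of log2(FPKM + 1) over the 12 libraries, which share the 4 groups and their depth, the non-member genes most like Saa1 were Gfm2 (0.95), Dhx58 (0.94) and Pcnt (0.94), and those most like Saa2 were Gnat1 (0.93), Col15a1 (0.93) and Mlkl (0.92). Dhx58, an RNA sensor that interferon induces, was at a mean of 2.92 FPKM in Con and 1.48 FPKM in CR mice. Genes like Orm2 included Nudt19 (0.96) and Nrg4 (0.96). Nrg4, a secreted growth factor, was at 4.82 ± 0.629 FPKM in Con and at 13.8 ± 1.90 FPKM in CR mice (SD, n = 6). Saa3 was most like Brd8 (0.92), Fas (0.91) and Wrap73 (0.90), genes like Lcn2 included Palld (0.90) and Fam169b (0.85), and Apcs was most like Gstm2, Cd36 and Gucy1b3 (0.91, 0.91 and 0.88). For Orm1 they were Bdh2, Gsta4 and Dazap1 (0.91, 0.90 and 0.87), for Saa4 Nat8f5, Atp6v0a2 and Aldh3a2 (0.92, 0.85 and 0.84), for Hp Tmem120a, Colgalt1 and Frat1 (0.89, 0.87 and 0.87), and for Crp F8a, Map3k21 and Fam63b (0.90, 0.88 and 0.88).

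Among the 10 genes themselves, likeness varied widely by pair once the diet and day were taken out. No such values were computed for pairs of other genes, so there is no background to set them against. Over the 45 pairs the median within-group r was 0.14, with 29 pairs above 0, and the values ran from -0.60 (Saa4 and Crp) to 0.71 (Lcn2 and Apcs). Markers of the other cell types liver can hold were measured beside these genes. None of 8 lymphocyte markers reached the filter (the highest, Nkg7, had a mean of 0.24 FPKM). The highest marker was Clec4g for endothelium (20.8 FPKM), Dcn for stellate cells and fibroblasts (50.3 FPKM), Spp1 for cholangiocytes (10.9 FPKM), Fabp4 for adipocytes (8.32 FPKM) and Hbb-bs for erythroid cells (324 FPKM). Past both thresholds were Plin4 of the adipocyte list and Alas2 of the erythroid list. Over both days Plin4 rose by 1.09 on the log2 scale (limma adjusted p = 0.00118) and Alas2 fell by 1.09 (adjusted p = 8.2e-04). Neither stands for its list. The other 4 of the 5 erythroid markers had a log2 fold change above 0 (list median 0.35). Of the 3 adipocyte markers tested, 1 was lower at an adjusted p under 0.1, against 40.6% of all genes tested in either direction. No gene of the other marker lists passed both thresholds, and the largest changes over both days were those of Lyz2 for macrophages (-0.68), Reln for stellate cells (0.49), Stab2 for endothelium (0.38) and Sox9 for cholangiocytes (-0.29).

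The summed hepatocyte markers were at 52427 to 59349 FPKM in Con and 60566 to 63364 FPKM in CR mice at day 25, and at 44113 to 53504 and 62583 to 71493 FPKM at day 30. The summed stellate and fibroblast markers were at 51.7 to 60.5 FPKM in Con and 62.7 to 68.2 FPKM in CR mice at day 25, and at 47.5 to 58.4 and 65.7 to 83.4 FPKM at day 30. Both sums thus lay higher in every CR mouse than in every Con mouse of the same day, but each is mostly 1 gene. The hepatocyte sum is mostly Alb. Over both days 4 of the 12 hepatocyte markers had a log2 fold change below 0 and 2 of them were lower at an adjusted p under 0.1, for example Apob (-0.40, limma adjusted p = 0.0184). The stellate and fibroblast sum is mostly Dcn (mean 50.3 FPKM). All 7 tested markers of that list had a log2 fold change above 0 over both days. At an adjusted p under 0.1, 3 of the 7 were higher, against 40.6% of all genes tested in either direction. The part of these cells in the levels of the 10 genes was not tested.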

How the data were processed

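Liver RNA-Seq of 12 mice in 4 groups of 3 was used. The authors mapped paired-end reads to mm10 with BWA (CASAVA 1.8.2 and FastQC are also named in the submitters' processing notes) and, per the methods, tested with DESeq2. They deposited FPKM values, which per the file headers were counted on exons with HOMER, 1 transcript kept per gene, with no scaling between libraries. FPKM are not counts, so log2(FPKM + 1) was tested with limma 3.58.1 in R 4.3.3 (empirical Bayes with a trend on expression, 1 model of the 4 groups, 2-sided) and over both days with day as a covariate. The script was tested on simulated data. Depth (100% of 1500 low values per library were whole multiples of 1 read, within 0.05) limits the genes with few reads. Python 3.11.15 (with numpy 2.4.6, pandas 2.3.3 and, for figures, matplotlib 3.10.9) made the tables.

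The 10 genes and all lists were chosen with earlier results of these data known. Besides the 10 genes, the text names list genes past both thresholds in CR against Con (or the list's largest change where none passed), the 3 non-members most like each member, each marker list's most abundant gene and those at 0, and Stat3, Socs3, Il6ra and Il6st. Some genes under this rule are not reported here. Orm3, and the ratios between members, were added after seeing the data.

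Replicate numbers of mice come from the labels, except that the labels of the Con mice of day 30 are identical and give none. At day 25 the deviations of same-numbered mice from their group means correlated at 0.106 to 0.368 (mean 0.260), so a replicate block was tried there. Other pairs had a mean of -0.131, a value largely set by taking out the group means and so no separate support. Alternatives covered the pseudocount, filter, scaling, voom on recovered reads, trend, fold limit, groups in the model, block and leaving out each mouse.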

Additional observations from a re-analysis of the deposited data

How the results depend on the processing

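The calls of Saa1 and Orm2 at day 25, at day 30 and over both days, and of Saa2 at day 30 and over both days, kept their direction and stayed past both thresholds under every alternative run, including each mouse left out. The number of the 10 genes past the thresholds at day 25 was 2, and 4 with a pseudocount of 0.1 or with TPM (Saa2 and Saa3 added) and 5 with no fold limit. Over both days it was 3, and 5 with no fold limit. Over all genes, calls at day 25 were 157, and 276 with the lower pseudocount and 302 with voom on recovered reads. At day 30 they were 234, and 422 with voom, and over both days 176, and 342 with voom. With voom, Saa3 at day 25 passed both thresholds (-1.14). At day 25 the replicate block gave 164 genes and the same 2 of the 10 (Saa1 adjusted p = 0.0167, Orm2 adjusted p = 1.1e-04, limma), and it changed no other call among the 10. At day 30 same-numbered mice, by the number of the column, correlated at 0.0456 to 0.181 (mean 0.114), and the block gave 236 genes. The labels of the Con mice of day 30 give no replicate number, so what these mice share is not known.

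Signs turned only in log2 values that were not past both thresholds. Median-ratio scaling gave 0.055 for Saa4 and 0.037 for Hp at day 30, quantile normalization -0.019 for Orm1 at day 25 and 0.025 for the difference between days of Crp, and voom 0.048 for Lcn2 at day 25. With each mouse left out, Lcn2 at day 25 ran from -0.70 to 0.54, Saa4 at day 30 from -0.23 to 0.18 and Hp at day 30 from -0.19 to 0.19. The difference between days ran from -0.75 to 0.34 for Saa1, -0.025 to 0.58 for Orm2, -0.14 to 0.11 for Crp, -0.022 to 0.58 for Saa3 and -0.024 to 0.19 for Orm1. The cause was not tested. The planned test of genes below the filter was not run, since all 10 passed it. Sums over near copies were added after seeing the data. Few reads lay behind Saa3 (at least 20.0), Lcn2, Saa2 and Orm2 in some mice, which limits their precision, and Lcn2 also spread widely between mice.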
